A study of Mus musculus with 7 samples.

Results

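The genes described here are 8 genes of myoblast fusion, Mymk, Mymx, Jam2, Jam3, Cdh2, Kirrel, Adgrb1 and Myof, and the open chromatin around them in freshly sorted mouse muscle stem cells (MuSCs). They are 8 of the 21883 protein-coding genes with a span on mm10. They were chosen by name, for their part in fusion, and not by a rule on their values, but with earlier results of these data known. A locus is the RefSeq span of a gene with 10 kb on both sides, and a promoter is any start site used here ± 1 kb. A gene was counted in a library if a peak overlapped it by at least 1 bp.

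MuSCs lie quiescent on the muscle fiber, and after an injury their progeny, the myoblasts, fuse with each other and with damaged fibers to make multinucleated muscle. Fusion begins with recognition and adhesion, for which myoblasts use immunoglobulin-type receptors such as the junctional adhesion molecules encoded by Jam2 and Jam3 and the nephrin-like protein encoded by Kirrel, along with the calcium-dependent adhesion protein N-cadherin, encoded by Cdh2. The membranes are then joined by the muscle-specific fusogens myomaker (Mymk) and myomerger (Mymx), which come on as myoblasts differentiate. Adgrb1 encodes BAI1, a receptor for phosphatidylserine exposed on cells, and Myof encodes myoferlin, a calcium-binding membrane protein of the ferlin family.

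In ATAC-seq, a transposase inserts sequencing adapters into DNA that is not packed away, and each library was made from 5000 MuSCs sorted from mouse skeletal muscle. The study asked whether the loss of Nedd4L, an E3 ubiquitin ligase, changes chromatin accessibility, with 4 libraries from Nedd4L-cKO mice and 3 from WT mice. The knockout line, Nedd4L fl/fl Pax7 cre/+ on a C57BL/6 background, has a Cre driven from Pax7, so that recombination reaches MuSCs and the cells that descend from them. It removes an exon needed for ligase activity and leaves a transcript of the gene. All mice were young males of the same age range, and whether the WT mice carried the Cre or a floxed allele was not given in the sources used here. The cells were gated as ITGA7 positive and negative for CD31, CD45, CD11b and SCA1. Per the study, each genotype had as many mice as libraries, while the labels tie no library to a mouse.

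The libraries held 14.4 to 20.1 M tags after filtering by the peak caller and 69302 to 79158 peaks on the chromosomes used, with the fewest tags in WT replicate 3 and the most in Nedd4L-cKO replicate 4. The file name of WT replicate 3 gave lane 2, and those of the other 6 libraries lane 1. Of the broad peaks, 92.5% and 92.8% held a narrow peak in WT replicates 1 and 2, against 84.7% to 87.3% in the other 5 libraries. At Nedd4l itself, 1 start site was used, the outer end of the span, and no library had a peak within 1 kb of it. Starts inside the gene were not looked at, so this does not show that Nedd4l lacks an open promoter. The locus held 33 or 34 peaks in WT and 31 to 35 in Nedd4L-cKO (two-sided exact permutation test, p = 0.8286). These peaks do not show whether the floxed exon was recombined. The labelled cell type was checked at marker promoters. All 8 MuSC markers, Pax7 and Myf5 among them, had a promoter peak in all 7 libraries, and the immune markers Ptprc, Csf1r, Itgam and Cd68 had none in any. Of the endothelial markers, Pecam1, Cdh5 and Tie1 had none and Kdr had one in all 7 libraries. The fibro-adipogenic markers Pdgfra and Ly6a had none and Dcn was called in 5 libraries (2 Nedd4L-cKO and 3 WT). The promoters of Acta1, Myh4 and Myog, genes of differentiated muscle, were called in all 7 libraries and that of Ckm in 5. None of these marker promoters was called in all libraries of one genotype and in none of the other.

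At the promoters of the fusion genes, 6 of 8 were accessible in every library, those of Mymk, Jam2, Jam3, Cdh2, Kirrel and Myof, and those of Mymx and Adgrb1 were called in none. Over all 21436 protein-coding promoters with a start site, 63.4% were called in all libraries and 31.3% in none, so a count of 6 of 8 was near the share of promoters in general. No promoter of the 8 was called in all libraries of one genotype and none of the other. Among all promoters this pattern was found for 0.00933% with the call in Nedd4L-cKO and for 0.0187% with the call in WT. The promoter sequences of 2 of the 8 genes, Myof and Kirrel, were matched in RefSeq on GRCm38.p6, the assembly that mm10 names. They are shown because the sources used here held no promoter sequence of the other genes. The peak of each of the 7 libraries covered both from end to end, and they differ widely in base composition. Each is the 250 bases before a start site on the minus strand, 5′ to 3′, with the CpG dinucleotides in capitals, at chr19:38043578-38043827 for Myof and chr3:87174538-87174787 for Kirrel. For Kirrel this is the inner of its 2 start sites, at 87174537. The outer site, at 87174777, lies within the window, so most of the sequence is inside the gene span.
Myof: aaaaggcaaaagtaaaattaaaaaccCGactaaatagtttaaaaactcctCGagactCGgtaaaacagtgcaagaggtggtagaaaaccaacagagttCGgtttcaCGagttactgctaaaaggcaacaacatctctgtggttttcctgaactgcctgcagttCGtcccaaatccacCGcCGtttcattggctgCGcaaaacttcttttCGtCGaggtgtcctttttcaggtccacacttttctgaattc
Kirrel: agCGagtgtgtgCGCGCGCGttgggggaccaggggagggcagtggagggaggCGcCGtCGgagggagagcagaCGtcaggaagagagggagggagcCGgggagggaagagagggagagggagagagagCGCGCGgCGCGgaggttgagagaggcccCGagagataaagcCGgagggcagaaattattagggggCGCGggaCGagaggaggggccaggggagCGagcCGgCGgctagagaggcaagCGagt
The Myof promoter was 42.8% G and C with 11 CpG, and the Kirrel promoter was 68.8% G and C with 24 CpG, where the medians over 21262 promoters were 55.6% and 10. Of these promoters, 84.5% had fewer CpG than Kirrel and 52.5% had fewer than Myof. Each was searched on both strands for 6 motifs, and neither held any of them. The E-box, spelled CANNTG, was found in 62.8% of all promoters of this length, and its form CAGCTG, which is also counted in the first, was found in 12.1%. The AP-1 motif TGANTCA was found in 6.13% of promoters and the TEAD motif CATTCC in 11.7%. The TATA box, searched as TATAAA, was found in 11.6% and the MEF2 motif in 2.61%. A missing match says only that the letters are not in this window.

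How open each promoter was is given as a percentile among all peaks of its library, where 0 is the lowest peak and 100 the highest, by pileup (the mean tag coverage over the peak, not scaled for depth) and by fold enrichment (the peak over its local background). The Kirrel promoter had the highest pileup of the 6, with a median percentile of 92.7 over the 7 libraries and a range of 90.2 to 93.8. Jam2 followed with a median of 84.8 and Jam3 with 83.3, and their ranges overlapped (78.5 to 90.8 and 78.4 to 88.3). Cdh2 had a median of 75.8, Myof of 71.7 and Mymk of 69.2, again with overlapping ranges. Of the 6, Kirrel alone lay above the median of promoters called in all libraries, 86.8, in every library. By fold enrichment the order was another one. Jam3 came first with a median percentile of 91.2, before Jam2 with 79.2, Myof with 49.4, Kirrel with 44.2, Mymk with 34.96 and Cdh2 with 20.0, beside 79.6 for all promoters called in every library. Of the 6, Jam3 alone had a higher median percentile by fold enrichment than by pileup.

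**Figure D1:**
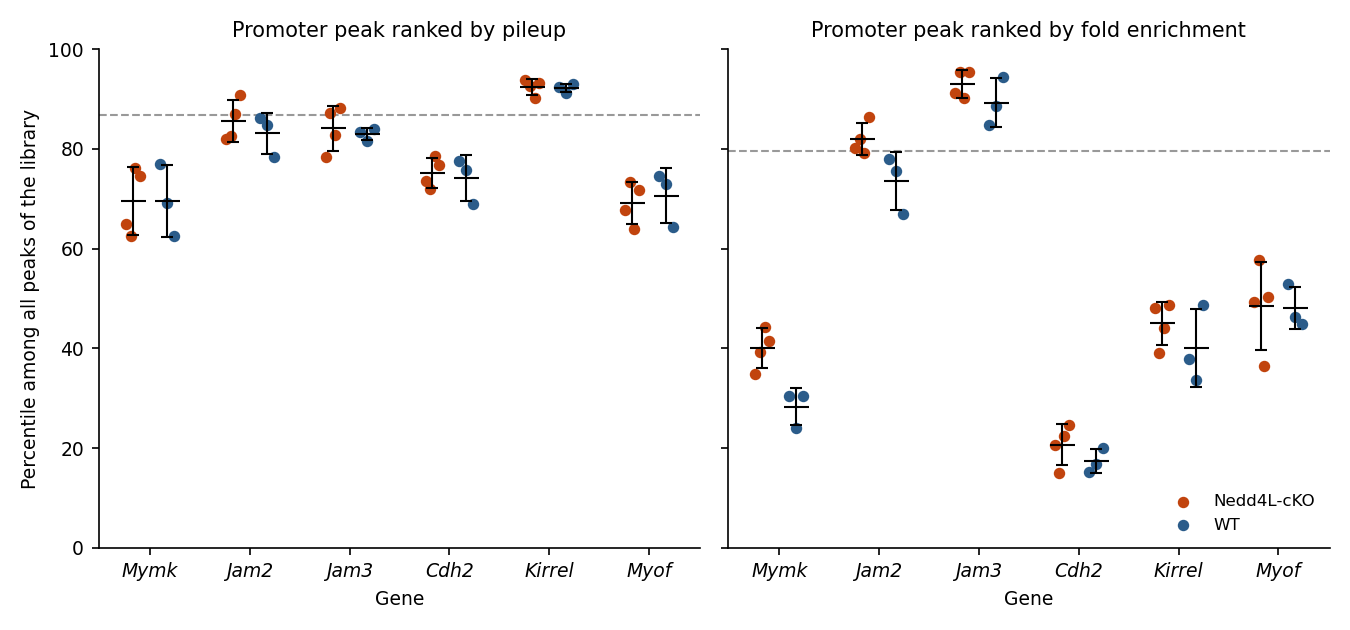
Percentile of the promoter peak among all peaks of its library, by pileup (left) and by fold enrichment (right), for the 6 fusion genes with a promoter peak; points are libraries, black bars mean ± SD (n = 4 Nedd4L-cKO, n = 3 WT), and dashed lines the medians of 86.8 and 79.6 over all promoters called in every library. The genotypes overlap for every gene by pileup, and are apart by fold percentile for Mymk and Jam2. By fold percentile, 4.33% of all promoters called in every library were higher in all Nedd4L-cKO libraries and 1.39% lower.

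Mymk, the gene of myomaker, spans chr2:27061636-27072161 on the minus strand. Its promoter region, chr2:27069389-27072293, was 2905 bp long and lay mostly inside the gene. By pileup its percentile was 64.9, 62.6, 76.2 and 74.6 in Nedd4L-cKO replicates 1 to 4 and 77.0, 69.2 and 62.4 in WT replicates 1 to 3, so the genotypes overlapped. The 3 lowest values were those of the 3 libraries with the fewest tags (14.4 to 15.1 M), and the part of depth in this was not tested. By fold enrichment it was 34.96, 39.4, 44.3 and 41.5 in Nedd4L-cKO and 30.4, 24.0 and 30.4 in WT. Here every Nedd4L-cKO library was above every WT library (40.05 ± 3.96, SD, n = 4, against 28.3 ± 3.72, SD, n = 3). Over all promoters called in every library, 4.33% were higher in all Nedd4L-cKO libraries and 1.39% lower in all of them. The unranked fold enrichment at Mymk was 3.34 to 3.48 in Nedd4L-cKO and 3.10 to 3.29 in WT.

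The call at Mymk was weak, with a -log10 q of 4.49 in Nedd4L-cKO replicate 2 and 4.57 in WT replicate 3, and 5.14 to 7.68 in the other 5 libraries. No peak lay elsewhere in the gene. A region upstream of the start site, chr2:27077629-27079617, also overlaps the promoter of Adamtsl2 and had a median pileup percentile of 75.8, and one beyond the end of the gene, chr2:27058354-27060325, had one of 21.4. Both were called in all 7 libraries, and the locus held 3 peaks in every library but WT replicate 2, which had 4. The promoters most like that of Mymk in pileup percentile over the 7 libraries, by Euclidean distance, were those of Rbp7 (distance 6.03 percentile points), Smpdl3a (6.62) and Fblim1 (6.65), as a description.

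Mymx, the gene of myomerger, is a short gene at chr17:45600961-45602196 on the minus strand, and had no peak in its span or within 1 kb of its start site in any library. The nearest peak of any library lay 3489 bp from the start site. The promoter also had no peak within 2.5 kb, so it was not called at this depth, which does not show that it was closed. All peaks of the locus lay in the flanks, and there were 3, 4, 3 and 3 in Nedd4L-cKO replicates 1 to 4 and 3, 4 and 4 in WT replicates 1 to 3. The strongest, chr17:45596599-45598707, also overlaps the promoter of the nucleoside transporter gene Slc29a1, as does chr17:45595154-45595917 next to it. Their median pileup percentiles were 96.0 and 90.8, while their fold percentiles ranged from 7.63 to 20.4 and from 1.35 to 3.21, at medians of 2.73 and 2.32 times the local background. Another region that all libraries shared, chr17:45609724-45610971, lay 7528 bp upstream of the Mymx start site, overlapped no promoter used here, and was strong for its surroundings, with a fold percentile of 89.4 and a pileup percentile of 54.5.

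Jam2, which encodes JAM-B, spans chr16:84774123-84826380 on the plus strand. It held 2 peaks in each of the 7 libraries, of which 1 was its promoter, chr16:84773893-84775598. By pileup the percentile of the promoter was 81.9, 82.5, 87.0 and 90.8 in Nedd4L-cKO replicates 1 to 4 and 86.2, 84.8 and 78.5 in WT replicates 1 to 3, and the genotypes overlapped. By fold enrichment it was 80.2, 82.1, 79.2 and 86.5 in Nedd4L-cKO and 78.0, 75.7 and 67.0 in WT, so that in this rank all Nedd4L-cKO libraries were above all WT libraries. The group means were 81.97 ± 3.21 (SD, n = 4) and 73.5 ± 5.80 (SD, n = 3). Among all promoters called in every library, 4.33% were higher in all Nedd4L-cKO libraries and 1.39% lower in all of them. Unranked, the fold enrichment overlapped, with 4.608 in Nedd4L-cKO replicate 3 and 4.611 in WT replicate 1. The other peak, chr16:84834257-84836366, lay beyond the end of Jam2 at the promoter of Gabpa and Atp5j, and with a median pileup percentile of 97.6 it was the highest of all regions in these loci.

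Jam3, which encodes JAM-C, the partner of JAM-B, spans chr9:27097384-27155421 on the minus strand. Its promoter, chr9:27154746-27155944, stood out best from its surroundings among the 6, with fold percentiles of 91.2, 95.4, 90.2 and 95.4 in Nedd4L-cKO replicates 1 to 4 and 84.7, 88.6 and 94.5 in WT replicates 1 to 3. The genotypes overlapped, since WT replicate 3 was above 2 of the 4 Nedd4L-cKO libraries. Within the gene, chr9:27148107-27150217 and chr9:27109194-27111249 were called in all 7 libraries with median pileup percentiles of 73.8 and 68.2. The first of these varied widely, from 49.0 in Nedd4L-cKO replicate 1 to 81.5 in WT replicate 1. The other 3 regions of Jam3 were called in 1 to 5 libraries at percentiles of 10.96 to 18.6.

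Cdh2, the gene of N-cadherin, is the longest of the 8, at chr18:16588877-16809246 on the minus strand, and had the lowest density of peaks. Its promoter region, chr18:16806869-16809942, was broad at 3074 bp and weak over its background, with fold percentiles of 20.7, 15.1, 22.4 and 24.7 in Nedd4L-cKO replicates 1 to 4 and 15.2, 16.9 and 20.0 in WT replicates 1 to 3, which overlapped. Its -log10 q was under 5 in Nedd4L-cKO replicate 2 (4.195) and WT replicate 3 (4.58), the same libraries as at Mymk. A region inside the gene, chr18:16739632-16741657, 67589 bp from the start site, was stronger than the promoter in both measures, with a median pileup percentile of 86.5 and a median fold percentile of 94.6. It was called in all 7 libraries, as was chr18:16588351-16589037 at the end of the gene, and the other 6 regions were called in 1 to 6 libraries at pileup percentiles of 3.60 to 16.7.

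The length of the Cdh2 locus covered by peaks was 6.47, 6.97, 6.71 and 7.11 kb in Nedd4L-cKO replicates 1 to 4 and 5.54, 5.74 and 5.48 kb in WT replicates 1 to 3. Every Nedd4L-cKO library was above every WT library, with a difference in means of 1.23 kb. At Jam2 the covered length was 3.39, 2.82, 3.20 and 3.30 kb in Nedd4L-cKO and 3.46, 3.41 and 3.60 kb in WT, so that it was lower in every Nedd4L-cKO library. The other 6 loci overlapped. Over all loci, 1.65% were higher in all Nedd4L-cKO libraries and 1.16% lower in all of them. With peaks of a -log10 q of at least 5 alone, the covered length of Cdh2 ranged from 1.44 to 5.48 kb in Nedd4L-cKO and from 0.856 to 4.59 kb in WT, which overlapped. It stayed apart with broad peaks that hold a narrow peak (5.60 to 6.25 kb in Nedd4L-cKO, 5.18 to 5.34 kb in WT) and within the gene span alone (5.345 to 5.94 kb against 4.34 to 4.595 kb). The number of peaks in the Cdh2 locus, 5 to 7 in Nedd4L-cKO and 5 or 6 in WT, overlapped as well.

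Kirrel, a nephrin-like adhesion gene, spans chr3:87078593-87174777 on the minus strand and had the most peaks of the 8, with 14, 13, 11 and 16 in Nedd4L-cKO replicates 1 to 4 and 15, 13 and 12 in WT replicates 1 to 3. The genotypes overlapped, and the most peaks were in the deepest library, Nedd4L-cKO replicate 4. The promoter region, chr3:87173890-87175824, covered both start sites used here and had fold percentiles of 48.0, 39.2, 44.2 and 48.6 in Nedd4L-cKO and 37.9, 33.6 and 48.7 in WT. Besides it, 8 of the other 16 regions were called in all 7 libraries. The strongest were chr3:87114881-87116929, 57608 bp into the gene, and chr3:87149815-87151323, 23214 bp into it, with median pileup percentiles of 85.3 and 83.8. A short region next to the promoter, chr3:87172441-87173183, was called in 5 libraries (3 Nedd4L-cKO and 2 WT) with a median pileup percentile of 74.9 but a fold percentile of 0.161, near the lowest of all peaks.

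Adgrb1, the gene of BAI1, spans chr15:74516196-74589465 on the plus strand. No library had a peak within 1 kb of its start site, but all 7 had peaks on both sides of that window, at chr15:74514162-74514849, 1347 bp upstream, and at chr15:74518768-74520193, 2572 bp into the gene. With a window of 2.5 kb the promoter was therefore called in 7 of 7 libraries. The strongest region of the gene was chr15:74563167-74564146, 46971 bp into it, with a median pileup percentile of 64.6 and fold percentiles of 93.6, 90.1, 95.3 and 96.8 in Nedd4L-cKO replicates 1 to 4 and 99.0, 86.8 and 82.6 in WT replicates 1 to 3. The locus had 5, 5, 6 and 7 peaks in Nedd4L-cKO and 5 in each WT library. Of the 7 regions of the locus, 3 were called in 2 to 6 libraries. In the genome 27908 of 95163 regions were. The 3 were weak. One, chr15:74529231-74529851, was found in 2 Nedd4L-cKO libraries alone, at a median pileup percentile of 8.68. Another, chr15:74537350-74538998, was found in all 4 Nedd4L-cKO and 2 WT libraries, at 12.95. The last, chr15:74589838-74590132, was found in 1 Nedd4L-cKO and 1 WT library, at 16.2. The genome shares of these 3 patterns are not given here.

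Myof, the gene of myoferlin, spans chr19:37899036-38043577 on the minus strand, and its promoter region was chr19:38042167-38044044. By pileup its percentile was 67.7, 73.3, 63.9 and 71.7 in Nedd4L-cKO replicates 1 to 4 and 74.5, 73.0 and 64.3 in WT replicates 1 to 3. By fold enrichment it was 49.4, 57.7, 36.5 and 50.4 in Nedd4L-cKO and 53.0, 46.3 and 45.0 in WT, and the genotypes overlapped in both measures. Inside the gene 7 further regions were called in all 7 libraries. The region with the highest pileup was chr19:38024828-38026104, with a median percentile of 64.4 and a fold percentile of 12.1, while chr19:38015252-38016611 had a lower pileup percentile of 50.4 and a fold percentile of 80.6. A strong region upstream, chr19:38053526-38055350, with a pileup percentile of 95.2, overlaps the promoter of Cep55 and lies on the edge of the locus, so that peaks of 5 libraries reached into the locus and those of the other two ended short of it.

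**Figure D2:**
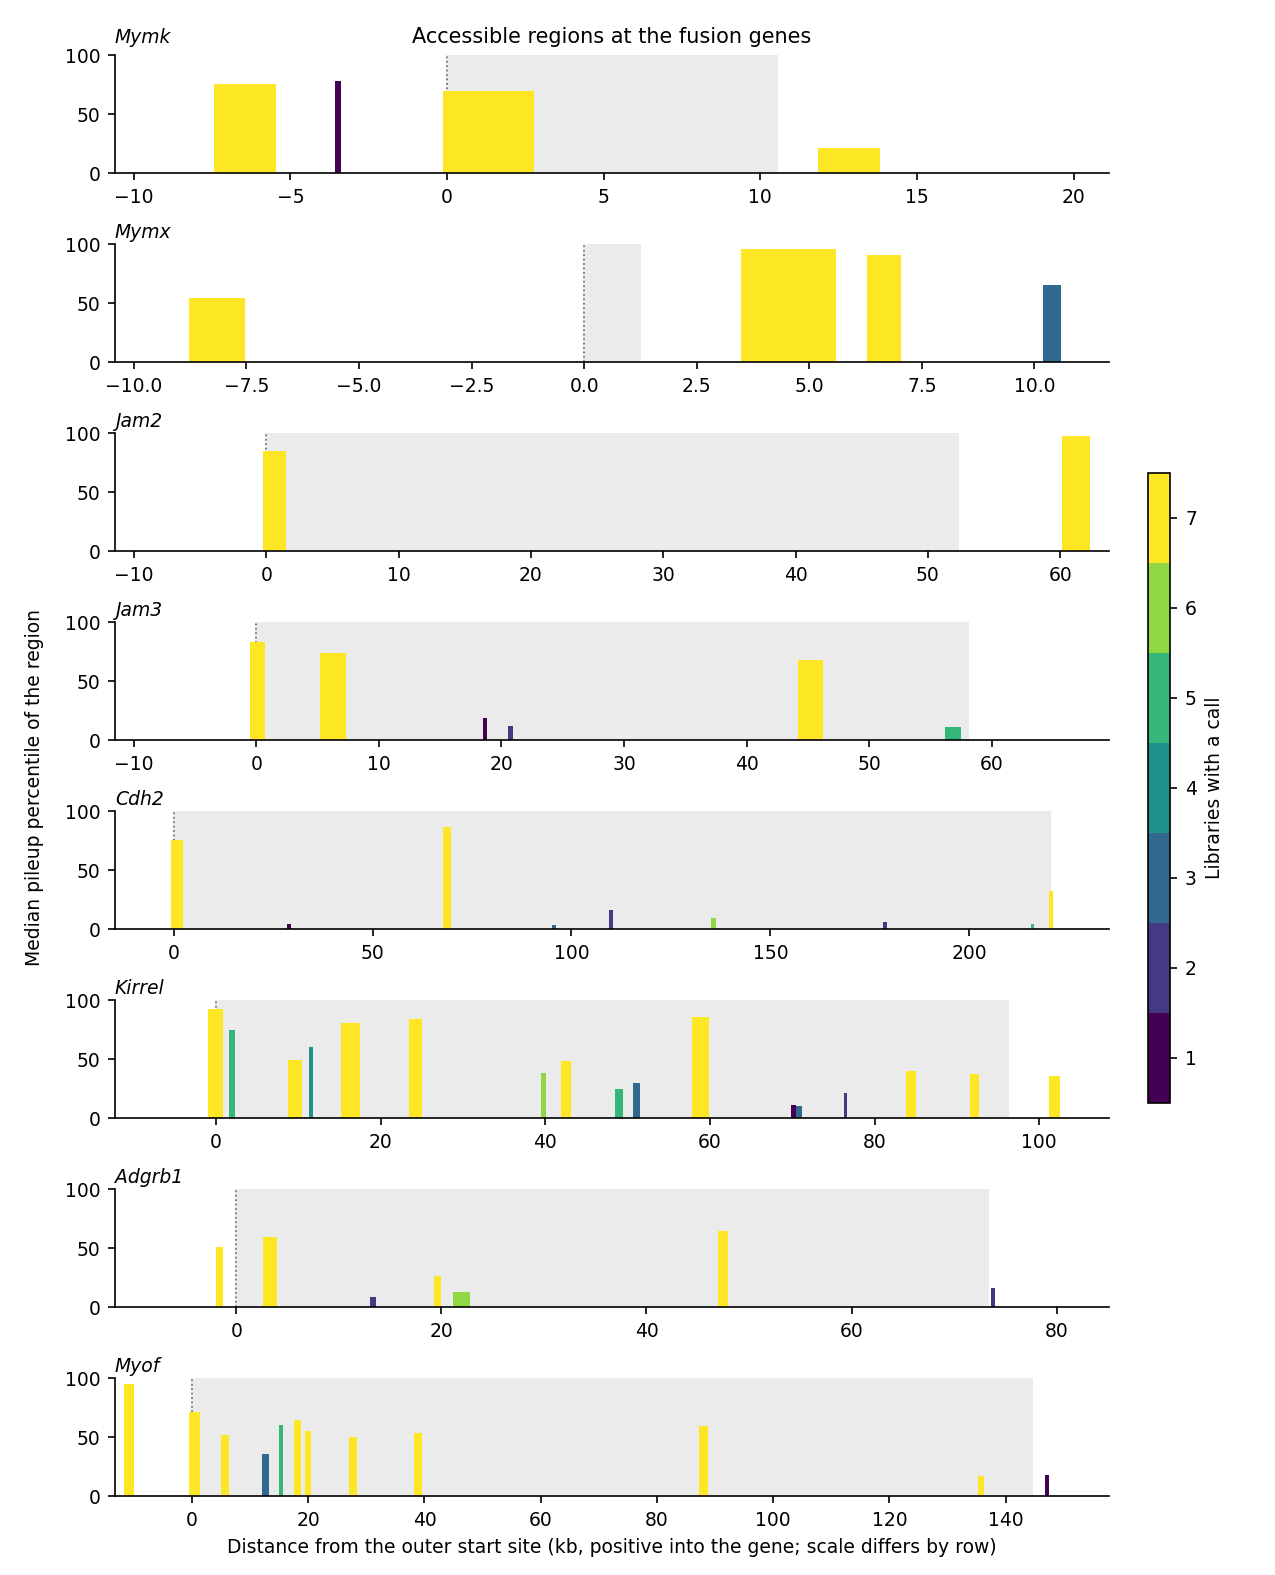
Regions of open chromatin in the loci of the 8 genes by distance from the outer start site in kb (positive into the gene, the shaded span), with bar height the median pileup percentile and colour the number of libraries with a call. Bars of 7 libraries are taller as a rule than those of fewer, with medians of 64.5 and 16.7, and Mymx has no bar in its span.

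Merged over the libraries, the peaks of the 8 loci made 61 regions. All 7 libraries shared 36 of them, 2 to 6 libraries shared 20, and 5 were found in 1 library. The share in all libraries, 59.0%, was near that of the 95163 regions of the genome, 56%. The 25 regions called in fewer libraries were mostly weak, with a median pileup percentile of 16.7, against 64.5 for the 36. No region of the loci was called in all Nedd4L-cKO libraries and no WT library, or the reverse, where the genome had 0.0694% and 0.082% of regions of these kinds. Without WT replicate 3, which leaves 2 WT libraries, 1 region was called in all Nedd4L-cKO and no WT library. It was chr3:87125389-87126370 in Kirrel, which did have a call in WT replicate 3 and had a median pileup percentile of 24.55. The share of such regions over the genome at this setting is not given here.

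Compared per length, the loci of Mymx, Kirrel and Mymk were the densest, with a median of 14.1, 11.2 and 9.83 peaks per 100 kb, at percentiles of 94.2, 86.2 and 81.5 among all protein-coding loci. Myof had 6.08, Adgrb1 5.36 and Jam3 5.13 peaks per 100 kb, near the median of 4.41 over all loci, and Jam2 with 2.77 and Cdh2 with 2.496 were below it. The density at Mymx came from peaks in its flanks, at other genes' promoters in part.

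The numbers of peaks per locus were compared between the genotypes. The mean difference, Nedd4L-cKO minus WT, was -0.33 peaks at Mymk, -0.42 at Mymx, 0 at Jam2, 0.25 at Jam3, 0.67 at Cdh2, 0.17 at Kirrel, 0.75 at Adgrb1 and 0 at Myof. None was larger than the spread between libraries by the exact permutation test over 35 splits (two-sided), with p from 0.371 at Cdh2 to 1, and 1.00 after Benjamini-Hochberg adjustment over all loci. The smallest p this design allows is 0.0286, so no locus could pass the adjustment. Of all 21883 loci, 0.361% had an exact permutation p under 0.05 before adjustment (79 loci) and 0% after it, and of the 8 fusion loci 0 had one.

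**Figure D3:**
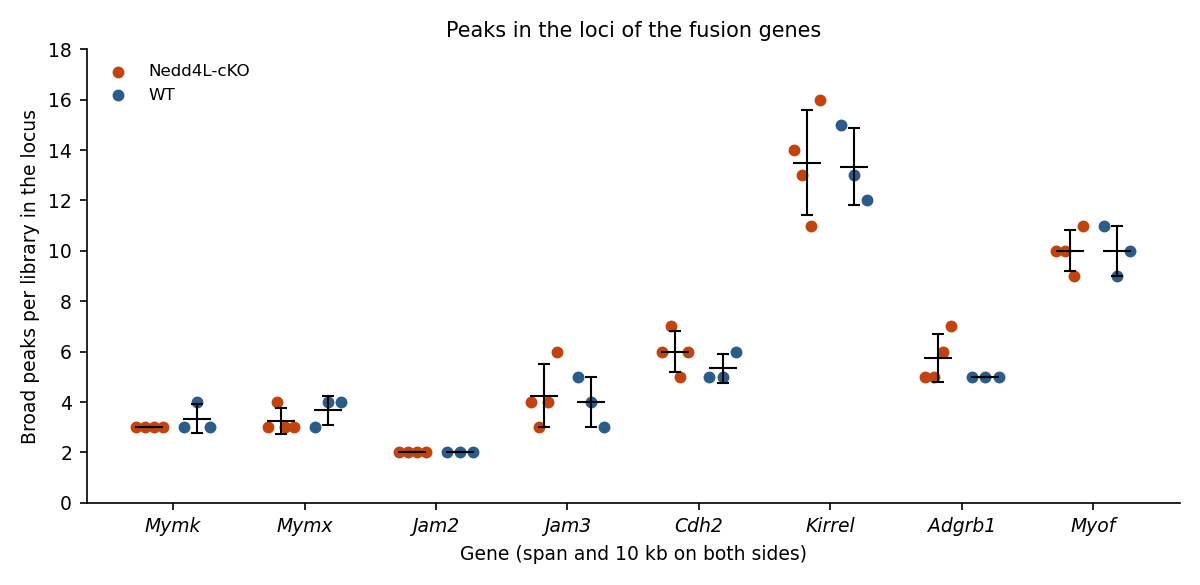
Number of broad peaks in each locus (gene span and 10 kb on both sides) per library; points are libraries and black bars mean ± SD (n = 4 Nedd4L-cKO, n = 3 WT). Counts run from 2 at Jam2 in every library to between 11 and 16 at Kirrel, and the genotypes overlap at all 8 loci.

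Accessibility was then compared between the genotypes as a rank. In the 53245 regions called in all 7 libraries, fold enrichment was ranked within each library and the ranks were turned into normal scores. The unit of these scores is 1 SD of a standard normal distribution. They were fitted with limma over all of these regions. Of the 36 regions at the fusion genes 0 passed at an adjusted p of 0.05 by limma, as did 0% of all regions, and 1 had an unadjusted p under 0.05, where 3.98% of all regions did. The difference, Nedd4L-cKO minus WT, ranged from -0.72 to 0.49 units with a median standard error of 0.22. It was positive in 23 regions and negative in 13, with a median of 0.07 beside 0.01 over all regions.

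At the promoters, the limma difference was 0.32 units at Mymk (SE 0.17, 95% interval -0.06 to 0.69, unadjusted p = 0.0878) and 0.32 at Jam2 (SE 0.17, interval -0.07 to 0.71, unadjusted p = 0.101). It was 0.25 at Jam3 (interval -0.22 to 0.72), 0.12 at Kirrel (-0.27 to 0.51), 0.08 at Cdh2 (-0.28 to 0.44) and 0.00 at Myof (-0.43 to 0.43). The adjusted p by limma was 1.00 for each of the 6. Leaving out 1 library gave 0.26 to 0.36 at Mymk, 0.20 to 0.40 at Jam2 and 0.11 to 0.42 at Jam3. The intervals bound the shifts these libraries allow and do not show that the promoters were alike. In fold percentile, the 2 promoters of Mymk and Jam2 did not overlap between the genotypes, both higher in Nedd4L-cKO, where over all 13590 promoters called in every library 4.33% were higher in all Nedd4L-cKO libraries and 1.39% lower in all of them. In pileup percentile 0 of the 6 were apart, and over all these promoters 1.66% were higher and 1.92% lower in all Nedd4L-cKO libraries. Ranked by pileup, the limma difference at Mymk was -0.002 units. In bulk libraries, fewer cells with an open site and less opening per cell cannot be told apart.

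Among the 36 regions at the fusion genes, the lowest unadjusted limma p was 0.0411, at chr15:74535510-74536183 inside Adgrb1, with an adjusted p of 1.00. Its fold percentile was 42.9, 43.2, 41.1 and 47.7 in Nedd4L-cKO replicates 1 to 4 and 68.2, 41.6 and 86.9 in WT replicates 1 to 3. The genotypes overlapped through WT replicate 2, and the difference of -0.72 units became -0.35 without WT replicate 3 and -1.085 without WT replicate 2. The next region with a lower rank in Nedd4L-cKO, chr19:38015252-38016611 in Myof, had a difference of -0.37 units (limma, unadjusted p = 0.138), which became -0.15 without WT replicate 2. Of the 36 regions, among those with a higher rank in Nedd4L-cKO, the lowest unadjusted limma p was 0.0736 at chr3:87072252-87073633, beyond the end of Kirrel, with a difference of 0.43 units, followed by the Mymk promoter.

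**Figure D4:**
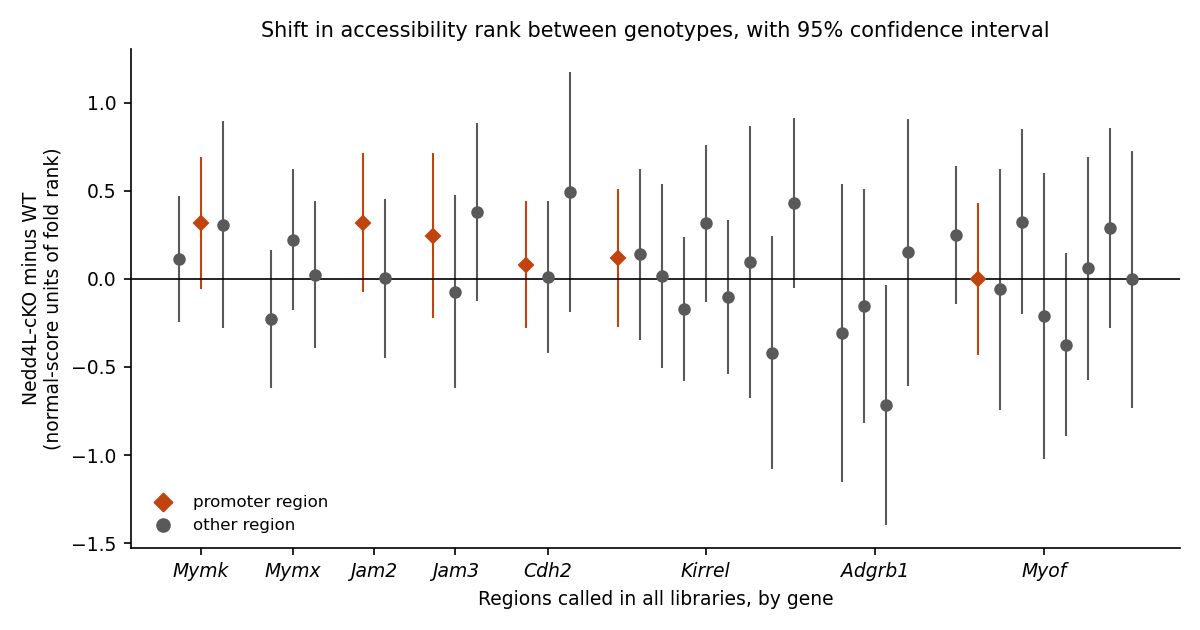
Difference in the rank of fold enrichment, Nedd4L-cKO minus WT in normal-score units, with its 95% confidence interval from limma, for the 36 regions called in all libraries, ordered along each gene from upstream to downstream; diamonds are promoter regions. All intervals but 1, in Adgrb1, include 0.

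Other genes of the fusion machinery were examined at their promoters, from a list of 51 adhesion, signalling, actin and membrane genes. Of these, 45 were called in all 7 libraries, 3 in some and 3 in none, and none was called in all libraries of one genotype and none of the other. Over all promoters 63.4% were called in all libraries and 31.3% in none, and 0.00933% and 0.0187% separated the genotypes. The median pileup percentile of the 45 was 90.9, beside 86.8 for all promoters called in every library. The 3 without a call were Cd36, a fatty acid and phosphatidylserine receptor, Stab2, also a phosphatidylserine receptor, and Fer1l5, a ferlin like myoferlin. Adgrb3, a close relative of Adgrb1, was called in 6 libraries (3 of each genotype) at a median pileup percentile of 19.6. Kirrel2 and Nphs1, relatives of Kirrel, were called in 1 Nedd4L-cKO library each, both at 15.1. Whether a single peak gave both calls was not examined. Among the close relatives of the 8 genes that were open in every library were Cdh15, the gene of M-cadherin, at 98.1, F11r, a junctional adhesion molecule, at 59.3, Kirrel3 at 66.3 and Dysf, a ferlin, at 71.1.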

How the data were processed

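ATAC-seq peak lists of 7 libraries (4 Nedd4L-cKO, 3 WT, grouped by the genotype label) were analysed. Per the study's methods and the submitters' processing notes, the authors trimmed reads with Trimmomatic 0.39, aligned them to mm10 with BWA 0.7.17, filtered them with SAMtools, removed duplicates with Picard 2.26.3 and called peaks for each library alone with MACS2 2.2.7.1. Per the file headers the peaks are broad (q of 0.1, narrow peaks at 0.05), without a control, with a shift of -100 bp, an extension of each tag to 200 bp and 1 tag kept per position. The deposited pileup is a signal, the mean coverage over the peak, and is not scaled for depth. The fold enrichment deposited by the authors is the ratio of a peak to its local background. The deposited q-value is given as -log10. The score column deposited by the authors was not used. Since values come from separate runs, they were compared between libraries as ranks. The unranked fold enrichment at the Mymk and Jam2 promoters is given as a description. Depth is the number of kept tags in the header, and deeper libraries can call weaker peaks.

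Peaks on the 19 autosomes, X and Y were used, with 1-based coordinates on mm10. Spans came from RefSeq (GRCm38.p6) for 21883 protein-coding genes. A start site, the outer end of the span or a site of the RefSeq promoter table, was had for 21436 (98.0%), with strands by symbol from GENCODE where that table gave none. Kirrel had 2 start sites and the other 7 genes 1, so starts inside those genes were not counted as promoters. Exons on this build were not used here. Peaks that shared at least 1 bp in any libraries formed a region. Tests were the exact permutation test over 35 splits and limma 3.58.1 (R 4.3.3, lmFit and eBayes, Benjamini-Hochberg over all regions), with Python 3.11.15, numpy 2.4.6, pandas 2.3.3, scipy 1.17.1 and matplotlib 3.10.9. Both were checked on simulated or shuffled values with planted differences far larger than those at the fusion genes. Such checks do not measure the power to find small differences. No libraries were duplicates (0 peaks with equal ends and pileup in any of 21 pairs). The labels do not say whether equal replicate numbers mark paired libraries, and the main tests did not treat them as pairs.

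The genes and all lists were chosen with earlier results of these data known. All 8 genes are named. Regions were named if they were at a promoter of the 8 genes, were among the 2 with the highest pileup percentile outside it in a locus, or had 1 of the 2 lowest limma p in each direction. Other regions that are named were picked after their values were seen, as was the covered length of Cdh2 singled out. Alternatives were a -log10 q of at least 5, broad peaks that hold a narrow peak, spans without flanks, a promoter window of 2.5 kb, ranks by pileup or by mean, limma with its trend and robust settings, a replicate block, and leaving out each library. The promoters of 1 further list of cell type markers are not reported here.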

Additional observations from a re-analysis of the deposited data

Results flagged for a closer look

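In the 4 Nedd4L-cKO libraries, 54 measures of the fusion genes that had any spread were examined for a library far from the others. At Mymx, Nedd4L-cKO replicate 2 had 4 peaks in the locus and the other Nedd4L-cKO libraries had 3 each, as 1 of 54 measures past the critical value of 0.829 for 4 libraries. For continuous values chance flags about 1 group in 20, but this rate does not hold for small counts. Any 4 counts of which 3 are equal and 1 differs pass the critical value. With counts of 3 and 4, the gap is the smallest a count can show.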

How the results depend on the processing

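At every alternative run, 0 regions of the fusion genes and 0 regions of the genome passed limma's adjusted threshold, and 0 to 2 of the member regions had an unadjusted p under 0.05. The 6 promoters called in every library fell to 4 with a -log10 q of at least 5, rose to 7 with a window of 2.5 kb, and were 6 when any single library was left out. The shares of all promoters at these settings are not given here, so these counts cannot be compared with promoters in general. No difference in peaks per locus passed the exact permutation test with the other peak sets or with the span alone. With 1 library left out or with the replicate block, too few splits remain for a p under 0.05, so those p-values say nothing of stability.

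The differences in peaks per locus were small, and their sign depended on the peaks used. With a -log10 q of at least 5 they were 0.083 at Mymk, -0.50 at Jam3, -0.83 at Kirrel, -1.17 at Adgrb1 and -0.50 at Myof. With broad peaks that hold a narrow peak they were 0.25 at Mymx, -0.25 at Jam3, -0.17 at Kirrel, -1 at Adgrb1 and -0.25 at Myof. With the span alone they were 0 at Mymk, where the promoter peak alone then counted, 0 at Mymx, where no peak did, and -0.33 at Myof. Leaving out 1 library gave -0.50 to 0 at Mymk, -0.33 to 0.75 at Jam3, -0.67 to 1 at Kirrel and -0.50 to 0.50 at Myof. The sign was turned at Jam3 and Kirrel without Nedd4L-cKO replicate 4 or WT replicate 3. Regions called in all Nedd4L-cKO and no WT library numbered 0 to 1, with 1 without WT replicate 3. That region, in Kirrel, was called in WT replicate 3, and the genome share at this setting is not given here. The covered length of Cdh2, an alternative chosen after seeing the data, was higher in Nedd4L-cKO by 0.887 kb with a -log10 q of at least 5, where the genotypes overlapped, by 0.688 kb with broad peaks that hold a narrow peak and by 1.24 kb with the span alone, where they did not. The cause of these changes was not tested.

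The same replicate number did not mark libraries that deviated together (r of -0.12, 0.03 and -0.12 across regions). With a replicate block, which leaves out Nedd4L-cKO replicate 4 and allows no p under 0.25, peaks per locus differed by -0.33 at Jam3, -0.67 at Kirrel and -0.33 at Myof, and with the block in limma the rank shifts at chr15:74518768 in Adgrb1 and at the Myof promoter turned to 0.00839 and 0.0171 units with 0 adjusted calls.

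Changes of sign in the rank shifts were looked for in the regions named by rule and called in all 7 libraries, not in all 36. Ranked by pileup, shifts turned negative at the Mymk promoter (-0.00202) and at the Mymk regions at 27058354 (-0.0574) and 27077629 (-0.0171), at the Mymx regions at 45595154 (-0.0932) and 45596599 (-0.00870) and at the Adgrb1 region at 74563167 (-0.0403). With a -log10 q of at least 5 the Jam2 region at 84834257 had -0.0224. Leaving out 1 library gave ranges that crossed 0 for 7 regions: -0.0597 to 0.117 at Mymx 45595154, -0.132 to 0.0829 at Jam2 84834257, -0.205 to 0.0818 at Jam3 27148107, -0.152 to 0.155 at Cdh2 16739632, -0.362 to 0.0784 at Adgrb1 74518768, -0.128 to 0.604 at Adgrb1 74563167 and -0.0989 to 0.0952 at the Myof promoter. With 4 and 3 libraries the median standard error of 0.22 units limits the shifts that can be seen.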
